A study of Mus musculus with 6 samples.

Results

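The genes described here encode integrins, the receptors that hold cells to the extracellular matrix, and the proteins of focal adhesions that tie integrins to the actin cytoskeleton. They are a list of 35 genes chosen by name, with earlier results of these data known. Each was found by its gene symbol in the deposited array table, giving 35 of 22061 named genes and 44 of 28361 probe sets. A gene stands here for its probe set of highest mean across the 6 arrays, and the genes with several probe sets are also given probe set by probe set. MCT cells, a proximal tubular epithelial line first taken from the renal cortex of SJL mice, were held in serum-free medium overnight and then exposed to TWEAK at 100 ng/mL for 6 h or to vehicle. TWEAK is a cytokine of the TNF superfamily that acts through the receptor Fn14, and the design asks which transcripts respond to it in tubular cells. There were 3 TWEAK arrays and 3 control arrays, described by the series as independent experiments of this single cell line, so p-values measure the spread between those experiments.

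Integrins are pairs of an alpha and a beta chain. Talins and kindlins bind the beta chain from inside the cell and switch the receptor on, and the kinases FAK and Src, with the adaptors paxillin and p130Cas, pass the signal onward. Vinculin, alpha-actinins, filamin, tensins and LIM-domain adaptors such as zyxin join the site to actin filaments, whose tension is set by ROCK kinases. In the kidney tubule these contacts keep the epithelium on its basement membrane.

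After TWEAK, 3 of the 35 genes passed the test, and they moved in both directions. The zyxin-family adaptor Lpp fell by 1.44 on the log2 scale by its brightest probe set, while its second probe set differed by -0.23 and did not pass. The adaptor Lims1 (PINCH), which binds integrin-linked kinase, fell by 0.83. The tyrosine kinase Src rose by 0.53. Arrays of bulk RNA cannot tell fewer cells with a transcript from less of it per cell. The test was limma with Benjamini-Hochberg adjustment over all 22061 genes, at a threshold of 0.05. The 3 genes are 8.57% of the list, against 3.00% of all genes called in either direction, 1.28% called higher and 1.71% called lower. Of the 35 genes, 30 were brighter than the median gene, and 10.0% of these 30 were called, against 5.55% of all genes that bright (2.41% higher and 3.14% lower). The count rested on single arrays. It was 0 without any 1 of TWEAK 1, TWEAK 2, TWEAK 3, control 2 or control 3, and it was 7 without control 1. In the former fits limma gave 13 to 19 members an unadjusted p under 0.05, and 3391 to 4787 of all 22061 genes. The calls over all genes moved in the same way, from 661 to between 1 and 219 in those fits and to 1876 without control 1.

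By looser rules the list held further differences, and the counts below include Lpp, Lims1 and Src. At an unadjusted p under 0.05 in limma there were 19 of 35 members, 8 higher and 11 lower under TWEAK. That is 54.3% of the list against 21.3% of all genes (8.15% higher and 13.1% lower). Among the 30 brighter members the count was 17, or 56.7%, against 34.3% of all genes that bright. The 2 groups of arrays did not overlap for 20 members, 8 higher and 12 lower under TWEAK, which is 57.1% of the list against 26.4% of all genes (12.9% higher and 13.5% lower). Of the 30 brighter members 60.0% did not overlap, against 37.7% of all genes that bright. Rock2, lower under TWEAK, is in both of these brighter counts. It was brighter than the median gene (6.32) only through its control arrays, with means of 6.23 in TWEAK and 7.40 in control cells. The median difference of the 35 was -0.02, between quartiles of -0.32 and 0.25, and that of all genes was 0.03, between quartiles of -0.10 and 0.12. Without regard to sign the median size was 0.27 for the members, against 0.12 for all genes and 0.18 for the brighter genes.

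**Figure D1:**
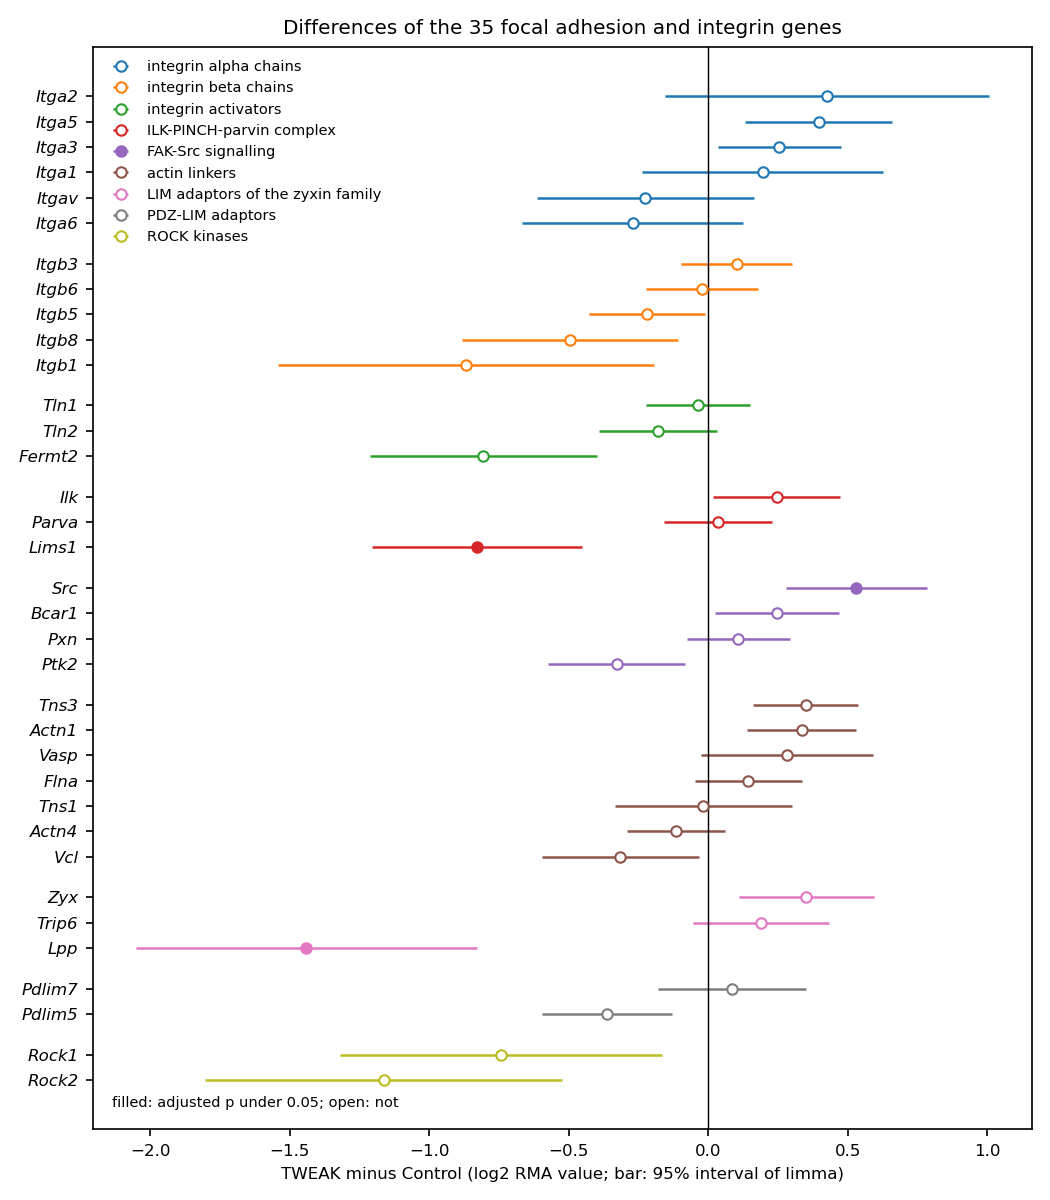
TWEAK minus control for the 35 genes, on the horizontal axis in log2 RMA values, grouped by role from integrin chains at the top to ROCK kinases at the bottom. Points are limma estimates from 3 TWEAK and 3 control arrays, bars are 95% intervals, and filled points passed the adjusted threshold. Lpp at -1.44 lies farthest from 0, Rock2 at -1.16 is next, and Src at 0.53 is the highest.

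On these arrays the epithelial markers Krt18, Krt19 and Krt8 and the tubular markers Cdh16, Pax8 and Lrp2 were brighter than the median gene. These were 6 of 10 epithelial and tubular markers checked. The other 4, the proximal tubule genes Slc34a1 and Cubn and the epithelial genes Cdh1 and Epcam, were dimmer than the median gene, with mean log2 values of 6.35 in TWEAK and 6.15 in control cells for Slc34a1, 5.81 and 6.13 for Cubn, 5.82 and 5.70 for Cdh1, and 5.06 and 4.98 for Epcam. The endocytic receptors of the proximal tubule, Lrp2 and Cubn, differed by -0.64 and -0.33, at adjusted p of 0.0859 and 0.0641 in limma. Of 18 markers of fibroblasts, endothelium and leukocytes, 2 were brighter than the median gene, and limma called 0 of the 28 markers (3 at an unadjusted p under 0.05). Array medians lay between 6.12 and 6.18.

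Promoter windows show what sequence lies at the starts of the listed genes. RefSeq windows (assembly GRCm38.p6), each 300 bases long with 250 before and 50 after a start, were matched by symbol for 28 of the 35 genes, giving 36 windows. The motifs searched, on both strands, were the NF-kB consensus, the CArG box bound by SRF, the AP-1 letters TGANTCA, the TEAD letters GGAATG and the GC box GGGCGG, and the last of these can overlap itself. Shown first are windows of the 3 called genes, both of Lpp, the first of 3 of Lims1 and the only one of Src, with the motif letters in capitals.
Lpp, chr16:24393100-24393399, plus strand, none of the motifs: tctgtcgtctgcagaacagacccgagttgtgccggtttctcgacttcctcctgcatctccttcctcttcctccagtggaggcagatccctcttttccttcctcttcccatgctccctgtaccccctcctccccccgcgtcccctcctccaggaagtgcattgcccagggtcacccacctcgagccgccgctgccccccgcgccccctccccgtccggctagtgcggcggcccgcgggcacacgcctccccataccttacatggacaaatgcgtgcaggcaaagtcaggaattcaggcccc
Lpp, chr16:24721605-24721904, plus strand, with GGAATG: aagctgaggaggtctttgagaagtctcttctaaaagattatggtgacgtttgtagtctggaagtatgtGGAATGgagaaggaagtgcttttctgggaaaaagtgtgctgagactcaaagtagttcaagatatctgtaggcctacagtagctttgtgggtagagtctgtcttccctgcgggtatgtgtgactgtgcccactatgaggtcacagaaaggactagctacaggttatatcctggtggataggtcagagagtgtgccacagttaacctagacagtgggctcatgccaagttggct
Lims1, chr10:58323297-58323596, plus strand, with GGGCGG on the reverse strand: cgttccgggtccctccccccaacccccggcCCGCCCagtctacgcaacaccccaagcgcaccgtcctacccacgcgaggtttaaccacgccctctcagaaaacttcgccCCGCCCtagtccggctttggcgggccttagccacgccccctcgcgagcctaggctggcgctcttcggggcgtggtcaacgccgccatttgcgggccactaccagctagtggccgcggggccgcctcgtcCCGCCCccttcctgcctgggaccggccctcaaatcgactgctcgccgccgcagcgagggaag
Src, chr2:157424043-157424342, plus strand, with GGGCGG on both strands: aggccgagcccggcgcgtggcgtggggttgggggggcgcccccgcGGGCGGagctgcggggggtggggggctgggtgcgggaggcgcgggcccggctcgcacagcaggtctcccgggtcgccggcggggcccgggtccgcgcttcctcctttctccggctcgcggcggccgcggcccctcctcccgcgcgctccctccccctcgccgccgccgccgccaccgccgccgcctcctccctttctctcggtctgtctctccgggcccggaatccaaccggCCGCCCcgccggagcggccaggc

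None of these 4 windows held the NF-kB consensus, which says only that those letters are not in these stretches. The consensus was found in 3 of 36 member windows (8.33%), in Pdlim5, Ilk and Flna, against 4.51% of all 32851 windows. The CArG box was in 4 of 36 (11.1%) against 1.63% of all windows. Its holders were Vcl, Fermt2, Trip6 and a second start of Itgb6. Vcl and Fermt2, neither of which passed the adjusted threshold, are shown because both lay lower in all TWEAK arrays. Trip6 and Itgb6 are not shown.
Vcl, chr14:20929148-20929447, plus strand, with CArG box, GGAATG and GGGCGG: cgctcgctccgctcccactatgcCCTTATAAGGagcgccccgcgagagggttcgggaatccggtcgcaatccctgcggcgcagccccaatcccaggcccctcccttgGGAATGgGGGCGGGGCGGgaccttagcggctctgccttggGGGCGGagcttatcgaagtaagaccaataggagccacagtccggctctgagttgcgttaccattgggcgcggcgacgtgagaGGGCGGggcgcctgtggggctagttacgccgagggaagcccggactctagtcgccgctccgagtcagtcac
Fermt2, chr14:45530016-45530315, minus strand, with CArG box and GGGCGG: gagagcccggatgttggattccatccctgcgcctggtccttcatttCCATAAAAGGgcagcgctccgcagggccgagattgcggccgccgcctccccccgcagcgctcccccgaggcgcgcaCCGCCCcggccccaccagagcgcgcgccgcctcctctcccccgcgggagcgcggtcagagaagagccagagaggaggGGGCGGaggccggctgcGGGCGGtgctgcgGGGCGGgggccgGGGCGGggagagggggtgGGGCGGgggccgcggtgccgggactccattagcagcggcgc

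The 4 genes with a CArG box did not share a direction: Fermt2 differed by -0.81 and Vcl by -0.32, Trip6 by 0.19 and Itgb6 by -0.02. GC boxes were in 24 of 36 member windows (66.7%) against 35.7% of all windows, TGANTCA in 3 (8.33% against 7.81%) and GGAATG in 6 (16.7% against 14.7%). All windows were not matched to the members by brightness, and a gene can have several windows. What lies behind the differences in these motif shares was not tested.

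The integrin alpha chains did not pass the test, 0 of 6, where 3.00% of all genes passed. At an unadjusted p under 0.05 in limma there were 2 (33.3%, against 21.3% of all genes). Itga5, which pairs with Itgb1 to form the classical fibronectin receptor, had log2 values of 10.22, 10.03 and 10.45 on the TWEAK arrays, against 9.89, 9.80 and 9.82 on the control arrays. All 3 TWEAK values were above all control values. The difference was 0.40 (SE 0.11, adjusted p = 0.0946 in limma). Itga3, a chain of a laminin receptor, had 10.98, 11.15 and 11.28 on the TWEAK arrays, against 10.89, 10.90 and 10.87 on the control arrays. Its groups did not overlap either, and the difference was 0.25 (SE 0.10, adjusted p = 0.172 in limma). The collagen-binding chains Itga2 and Itga1 differed by 0.43 and 0.19, with 95% intervals of -0.15 to 1.01 and -0.24 to 0.63, so that changes of that size in either chain were not resolved. The vitronectin-receptor chain Itgav and the laminin-binding chain Itga6 differed by -0.22 and -0.27, also with overlapping groups. Without TWEAK 3 these differences were -0.08 for Itgav and -0.06 for Itga6, and that of Itga2 was 0.21 without TWEAK 1.

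Of the 5 beta chains 0 passed the threshold, where 3.00% of all genes passed. At an unadjusted p under 0.05 in limma there were 3 (60.0%, against 21.3% of all genes). Itgb1, the most widely shared beta chain, had 9.10, 9.58 and 8.30 on the TWEAK arrays, against 9.55, 10.03 and 9.99 on the control arrays, by its brightest probe set. TWEAK 3 lay far below the rest, and TWEAK 2 lay just above control 1, so the groups overlapped. The difference was -0.87 (SE 0.29, adjusted p = 0.135 in limma), and -0.52 without TWEAK 3. The other Itgb1 probe set read the opposite way, with 7.94, 7.85 and 8.10 on the TWEAK arrays, against 7.84, 7.74 and 7.56 on the control arrays. There all TWEAK values were above all control values, with a difference of 0.25 (SE 0.11, adjusted p = 0.254 in limma over all probe sets). The mean of the 2 probe sets differed by -0.31 (adjusted p = 0.232 in limma), and no direction can be given for Itgb1.

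Itgb8, a chain that binds latent TGF-beta, had 5.39, 5.60 and 5.33 on the TWEAK arrays, against 5.68, 5.79 and 6.33 on the control arrays, a difference of -0.49 (SE 0.17). Control 3 was the highest of the 6, and without it the difference was -0.30. Itgb5, a partner of Itgav, had 10.51, 10.50 and 10.69 on the TWEAK arrays, against 10.87, 10.72 and 10.75 on the control arrays, a difference of -0.22 (SE 0.09). Neither passed, at adjusted p of 0.137 and 0.208 in limma. Itgb3, another partner of Itgav, differed by 0.10 and the epithelial chain Itgb6 by -0.02. Itgb3, Itgb6, Itgb8, Itga1 and Rock1 were the 5 members dimmer than the median gene, and a change of a dim gene could go unseen.

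Of the proteins that activate integrins, the kindlin Fermt2 stood closest to the threshold. It had 8.56, 8.49 and 7.98 on the TWEAK arrays, against 8.89, 9.20 and 9.36 on the control arrays. Every TWEAK value was below every control value, and the difference was -0.81 (SE 0.18, adjusted p = 0.0522 in limma). Talins bind the same beta-chain tails: Tln1 differed by -0.04 (95% interval -0.22 to 0.15) and Tln2 by -0.18 (95% interval -0.39 to 0.03).

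Of the complex of integrin-linked kinase, PINCH and parvin, 1 of 3 members passed, against 3.00% of all genes. Lims1 had 7.75, 7.85 and 7.71 on the TWEAK arrays, against 8.20, 8.74 and 8.86 on the control arrays. The TWEAK arrays lay within 0.14 of each other, while the control arrays spread more, with control 1 the lowest. Means were 7.77 ± 0.07 in TWEAK and 8.60 ± 0.35 in control cells (SD, n = 3 arrays each), a TWEAK level 0.563 of control (difference -0.83, SE 0.16, limma adjusted p = 0.0444). Ilk, the scaffold that Lims1 binds, had 11.40, 11.55 and 11.72 on the TWEAK arrays, against 11.27, 11.31 and 11.35 on the control arrays. The TWEAK values were all higher, by a mean of 0.25 (SE 0.10), which did not pass at an adjusted p of 0.198 in limma. Parva, the actin-binding member, differed by 0.03 (95% interval -0.16 to 0.23).

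Among the kinases and adaptors that signal from the adhesion, Src had 10.27, 10.09 and 10.46 on the TWEAK arrays, against 9.83, 9.70 and 9.70 on the control arrays. The groups were clearly apart, and the control arrays were close together. Means were 10.28 ± 0.19 in TWEAK and 9.74 ± 0.08 in control cells (SD, n = 3 arrays each), a TWEAK level 1.44-fold that of control (difference 0.53, SE 0.11, limma adjusted p = 0.0468). Ptk2 (FAK), the kinase that recruits Src, had 8.20, 8.20 and 7.87 on the TWEAK arrays, against 8.41, 8.39 and 8.46 on the control arrays. All TWEAK values were lower, by a mean of 0.33, with a limma adjusted p of 0.124, and the difference was -0.22 without TWEAK 3. Bcar1 (p130Cas), a Src substrate, had TWEAK values of 10.67 to 10.92 and control values of 10.45 to 10.58, without overlap, a difference of 0.25 (SE 0.10, adjusted p = 0.184 in limma). Pxn (paxillin) differed by 0.11 (95% interval -0.08 to 0.29).

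**Figure D2:**
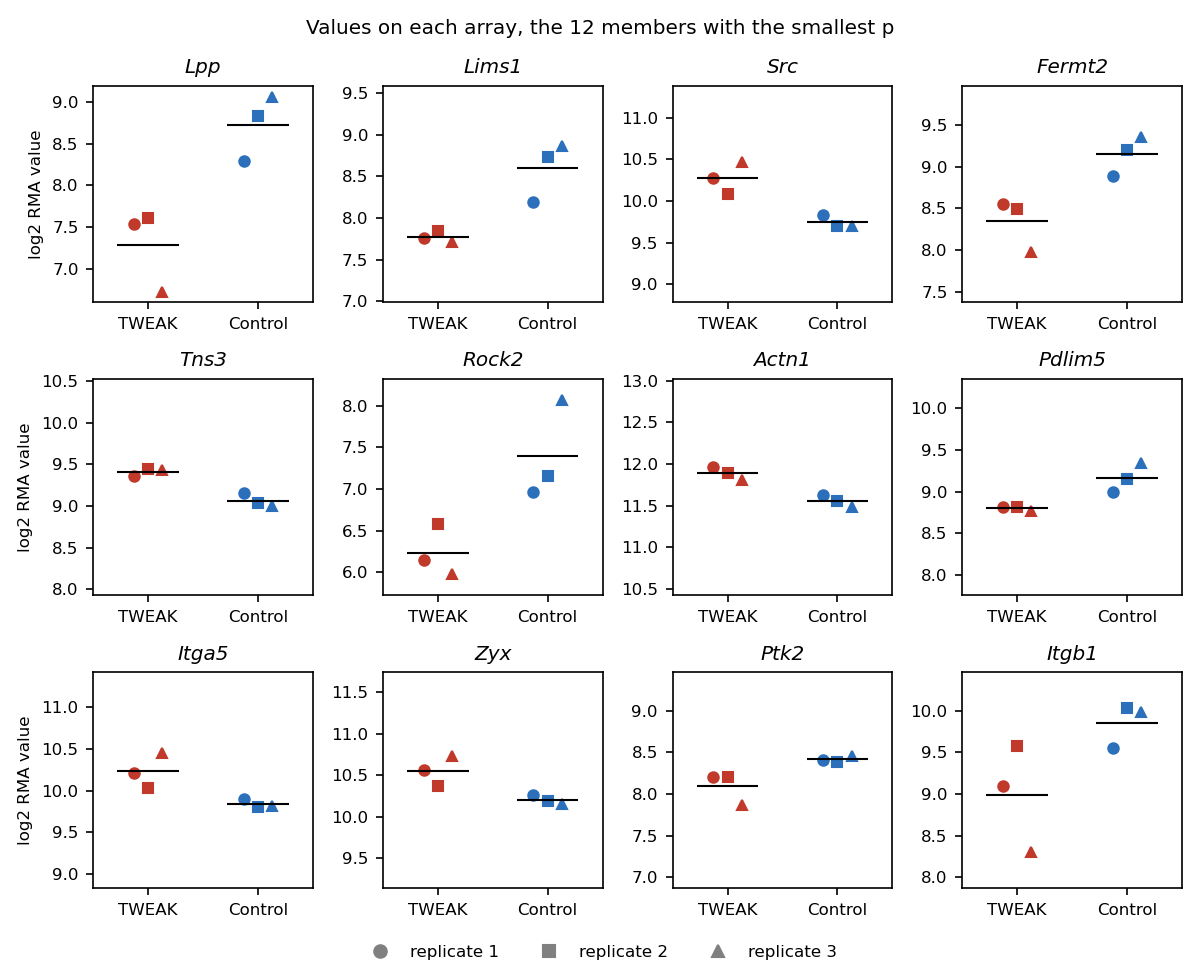
Log2 RMA values (vertical axes, each spanning the same range) on each TWEAK and control array for the 12 genes with the smallest p, with a bar at each group mean and a symbol for each replicate number. The groups do not overlap for 11 of the 12, and Itgb1 is the exception.

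The proteins that link adhesions to actin had 0 of 7 members past the threshold, where 3.00% of all genes passed. At an unadjusted p under 0.05 in limma there were 3 (42.9%, against 21.3% of all genes). Tns3, a tensin, had 9.36, 9.45 and 9.43 on the TWEAK arrays, against 9.16, 9.03 and 9.01 on the control arrays. Both groups were tight and apart, and the difference was 0.35 (SE 0.08, adjusted p = 0.0597 in limma). Actn1, an alpha-actinin that cross-links actin filaments, had 11.96, 11.89 and 11.80 on the TWEAK arrays, against 11.62, 11.55 and 11.48 on the control arrays. The difference was 0.34 (SE 0.08, adjusted p = 0.0695 in limma), and the groups did not overlap. A dimmer Actn1 probe set had 5.20, 4.96 and 5.11 on the TWEAK arrays, against 5.01, 4.79 and 4.79 on the control arrays, with a difference of 0.22 and overlapping groups. Its relative Actn4 differed by -0.12 (95% interval -0.29 to 0.06). Vcl (vinculin), which binds talin and actin, had 9.86, 9.91 and 9.53 on the TWEAK arrays, against 9.94, 10.13 and 10.18 on the control arrays. TWEAK values were lower without overlap, by a mean of 0.32 (SE 0.12, adjusted p = 0.184 in limma). The Vcl difference was -0.20 without TWEAK 3. The filament cross-linker Flna and the actin polymerisation factor Vasp differed by 0.14 and 0.28, with overlapping groups.

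Tns1, another tensin, has 6 probe sets, and their differences ran from -0.95 to -0.02 with overlapping groups in each. The brightest, which stands for the gene, had 8.40, 8.18 and 8.54 on the TWEAK arrays, against 8.65, 8.26 and 8.26 on the control arrays, and its difference was the closest to 0. The probe set at -0.95 had 7.85, 7.19 and 8.22 on the TWEAK arrays, against 8.80, 7.67 and 9.65 on the control arrays. Replicate 2 was the lowest array of both groups there, and the SD was 0.52 in TWEAK and 0.99 in control cells. The next brightest had 8.07, 6.87 and 7.99 on the TWEAK arrays, against 8.23, 7.21 and 8.70 on the control arrays (difference -0.40). Another had 7.54, 6.80 and 7.63 on the TWEAK arrays, against 7.73, 6.77 and 8.26 on the control arrays (difference -0.26). Array 2 was again the lowest of its group in both. The remaining pair had 7.64, 7.01 and 7.61 on the TWEAK arrays, against 7.78, 7.18 and 7.49 on the control arrays, and 6.90, 6.45 and 7.01 on the TWEAK arrays, against 7.13, 6.44 and 7.37 on the control arrays. For this pair the differences were -0.06 and -0.19, and array 2 was the lowest once more.

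Of the 3 LIM adaptors of the zyxin family, Lpp passed. Lpp had 7.53, 7.61 and 6.72 on the TWEAK arrays, against 8.29, 8.83 and 9.06 on the control arrays. TWEAK 3 was the lowest array and control 3 the highest, and the groups were apart. Means were 7.29 ± 0.49 in TWEAK and 8.73 ± 0.40 in control cells (SD, n = 3 arrays each), a TWEAK level 0.368 of control (difference -1.44, SE 0.27, limma adjusted p = 0.0391). Zyx (zyxin), which gathers at adhesions under tension, had 10.56, 10.37 and 10.72 on the TWEAK arrays, against 10.26, 10.19 and 10.15 on the control arrays. Its TWEAK values were all higher, by a mean of 0.35 (SE 0.11, adjusted p = 0.102 in limma). Trip6 differed by 0.19 with overlapping groups, and by 0.10 without control 3.

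The fall of Lpp was carried by 1 of its 3 probe sets. The second probe set, under the same RefSeq accession in the file, had 7.43, 7.54 and 7.39 on the TWEAK arrays, against 7.42, 7.77 and 7.88 on the control arrays. Control 1 lay within the TWEAK values there, and the difference was -0.23 (SE 0.13, adjusted p = 0.371 in limma over all probe sets). On the TWEAK arrays its mean of 7.46 was above the 7.29 of the first probe set. The first was the brightest only through the control arrays, with a mean of 8.73 against 7.69. The third, under another accession and dim, had 4.35, 4.16 and 4.31 on the TWEAK arrays, against 4.30, 4.10 and 4.41 on the control arrays, with a difference of 0.01. With the 3 probe sets averaged, the Lpp difference was -0.56 and did not pass, at an adjusted p of 0.0656 in limma. Where the probe sets lie along the gene was not analysed here.

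**Figure D3:**
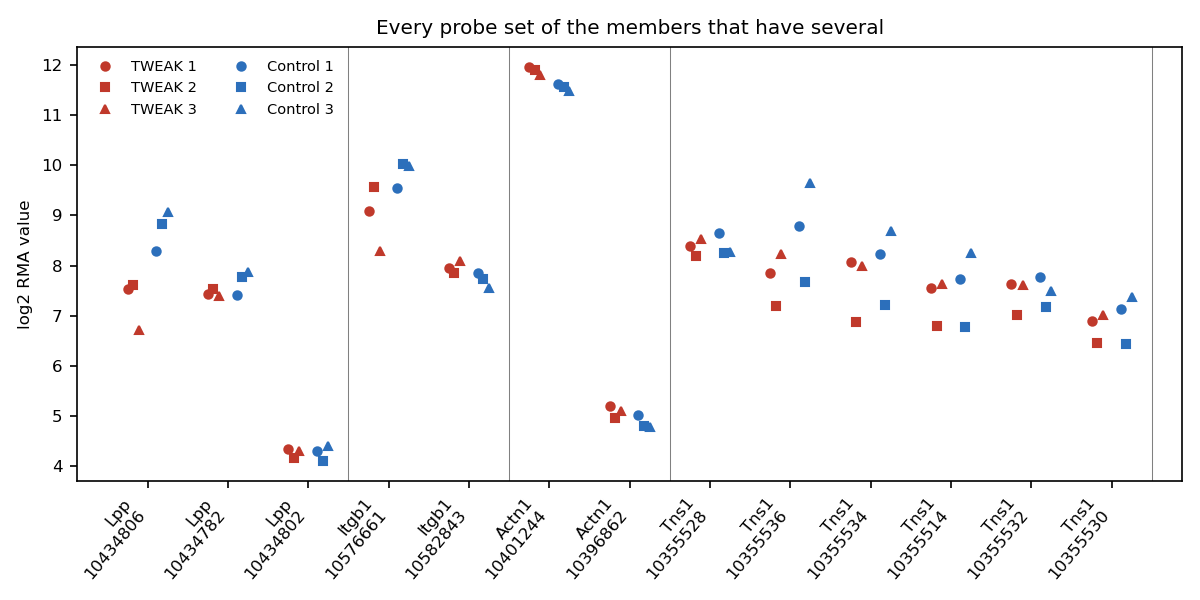
Log2 RMA values (vertical axis) on each array for every probe set of Lpp, Itgb1, Actn1 and Tns1, TWEAK left of control, with probe sets of a gene ordered by brightness. The first Lpp probe set separates the groups widely and the other 2 do not, the 2 Itgb1 probe sets point in opposite directions, and all 6 Tns1 probe sets overlap.

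Of the PDZ-LIM adaptors, which bind alpha-actinin, Pdlim5 had 8.81, 8.82 and 8.77 on the TWEAK arrays, against 8.998, 9.15 and 9.34 on the control arrays. The TWEAK arrays were nearly equal and all below the control arrays, by a mean of 0.36 (SE 0.10, adjusted p = 0.0851 in limma). Pdlim7 differed by 0.08 with overlapping groups.

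The ROCK kinases, which raise actomyosin tension, were both lower without overlap and neither passed. Rock2 had 6.15, 6.57 and 5.98 on the TWEAK arrays, against 6.97, 7.16 and 8.06 on the control arrays, a difference of -1.16 (SE 0.28, adjusted p = 0.0619 in limma). Rock1 had 5.04, 5.10 and 5.12 on the TWEAK arrays, against 5.47, 5.50 and 6.51 on the control arrays, a difference of -0.74 (SE 0.25, adjusted p = 0.135 in limma). In both genes control 3 stood well above the other control arrays. Without control 3 the differences were -0.83 for Rock2 and -0.40 for Rock1.

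Individual arrays moved with these differences. Of the 11 members with a lower TWEAK level and an unadjusted p under 0.05, TWEAK 3 was the lowest array in 9 (81.8%) and control 3 the highest in 9 (81.8%), and control 3 was above control 1 in 10 (90.9%). Among all 2889 genes lower by that rule, TWEAK 3 was the lowest in 61.9% and control 3 the highest in 73.8%. Control 3 was above control 1 in 89.9% of them, against 37.9% of all genes. Being lower under TWEAK by itself favours a TWEAK array as the lowest and a control array as the highest. Of the 8 higher members, TWEAK 3 was the highest array in 6 and control 3 was above control 1 in 2, against 58.0% and 19.8% of the 1799 genes higher by that rule. The part of this variation in the differences was not tested.

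The 3 calls were near the threshold. Leaving out TWEAK 1, TWEAK 2, TWEAK 3, control 2 or control 3 ended all of them, while without control 1 all 3 stood, at limma adjusted p of 0.0168 for Lpp, 0.00999 for Lims1 and 0.0336 for Src. Over the 6 omissions the Lpp difference ran from -1.66 to -1.16, with adjusted p at 0.0168 to 0.137. That of Lims1 ran from -1.03 to -0.70, with adjusted p at 0.00999 to 0.154, and that of Src from 0.44 to 0.62, with adjusted p at 0.0336 to 0.163. After cyclic loess between arrays all 3 also missed the threshold, at adjusted p of 0.0607 for Lpp, 0.0645 for Lims1 and 0.0546 for Src in limma, and with arrays centred on their medians Lims1 did, at 0.0535. The authors' deposited table, which adjusts over all probe sets, gives Lpp a ratio of 0.373 and a false discovery rate of 0.0684. In the authors' deposited table, of the 44 member probe sets 0 have a rate under 0.05 and 20 have a p-value under 0.05, which is 45.5% of them. Over all probe sets limma gives 0.377% a rate under 0.05 and 19.6% a p-value under 0.05.

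**Figure D4:**
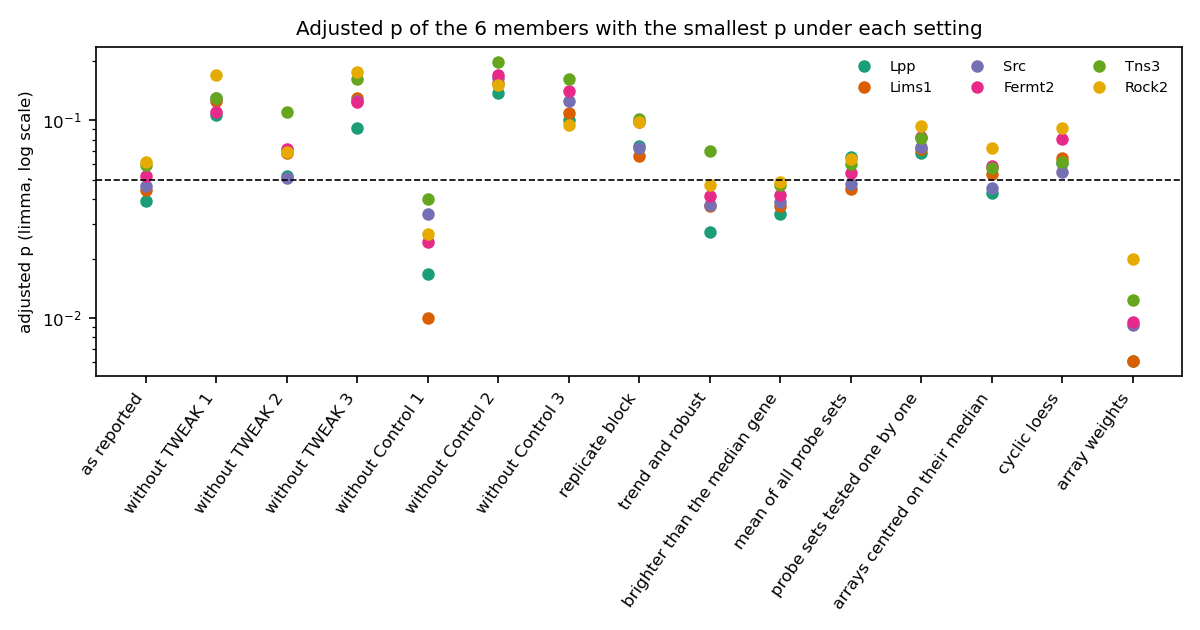
Adjusted p (vertical axis, log scale, dashed line at 0.05) from limma for the 6 genes with the smallest p, with all arrays and under each alternative setting. Lpp, Lims1 and Src lie under the line with all arrays, and all 6 genes lie above it when any array other than control 1 is left out.

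Genes around the list were counted in 5 further lists of 114 genes, of which 4 passed (3.51%, against 3.00% of all genes). At an unadjusted p under 0.05 in limma there were 27 of the 114 (23.7%, against 21.3% of all genes). None of 15 other integrin subunits passed limma's test, with 0 at an unadjusted p under 0.05, and 11 of the 15 were dimmer than the median gene. The smallest p there belonged to Itga4, at 0.20 (SE 0.09), and Itgad, at 0.19 (SE 0.14). Of 42 other adhesion adaptors and kinases 1 rose and 1 fell. At an unadjusted p under 0.05 in limma there were 16 of the 42 (38.1%, against 21.3% of all genes). The groups of arrays did not overlap for 20 of them (47.6%, against 26.4% of all genes). Pdlim4, a PDZ-LIM adaptor like Pdlim5 and Pdlim7, had 10.15, 10.02 and 10.29 on the TWEAK arrays, against 9.33, 9.02 and 8.98 on the control arrays. It rose by 1.04 (SE 0.12, adjusted p = 0.0155 in limma), a larger difference than that of any of the 35 genes except Lpp and Rock2. Its adjusted p was 0.0824 without TWEAK 1, 0.0625 without TWEAK 3 and 0.0888 without control 2. Kank1, which binds talin at the rim of adhesions, had 6.21, 6.17 and 6.16 on the TWEAK arrays, against 6.84, 6.67 and 7.20 on the control arrays, and fell by 0.73 (SE 0.13, adjusted p = 0.0377 in limma).

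Of 22 matrix ligands of integrins 2 fell, and 6 had an unadjusted p under 0.05 in limma (27.3%, against 21.3% of all genes). Thbs1 (thrombospondin) had 9.02, 8.81 and 9.33 on the TWEAK arrays, against 9.94, 10.03 and 10.80 on the control arrays, and fell by 1.21 (SE 0.23, adjusted p = 0.0409 in limma). Spp1 (osteopontin), a ligand of Itgav receptors, was dim, with 5.04, 5.01 and 5.11 on the TWEAK arrays, against 5.47, 5.57 and 5.62 on the control arrays, and fell by 0.51 (SE 0.08, adjusted p = 0.0334 in limma). Kank1, Thbs1 and Spp1 lost their calls without any 1 array other than control 1, with adjusted p up to 0.116, 0.129 and 0.130. Of 23 small GTPase and actomyosin genes 0 passed limma's test (3 at an unadjusted p under 0.05). The actin-binding protein Cald1 differed by -0.64 (SE 0.15, adjusted p = 0.0601) and Ppp1r12a, the targeting subunit of myosin phosphatase, by -0.62 (SE 0.15, adjusted p = 0.0605). Of 12 factors and targets of SRF with MRTF and of YAP with TAZ, 0 passed limma's test (2 at an unadjusted p under 0.05). The target Ankrd1 differed by -0.39 (SE 0.13) and the coactivator Mrtfa by 0.21 (SE 0.08).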

How the data were processed

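The values the authors deposited are log2 RMA values, 1 for each probe set on each array. Affymetrix Expression Console is the software that the submitters' processing notes name, and its version and the genome build are not stated there. RMA removes background and evens out probe intensities between arrays, which can hide a shift of most transcripts. The deposited values still differed slightly between arrays, in their medians (6.12 to 6.18) and lower quartiles (4.65 to 4.73). The labels' protocols name the GeneChip WT PLUS reagent kit for labelling. The deposited workbook and series values differed by at most 1.78e-15. The workbook also holds the authors' ratio (unlogged TWEAK mean over unlogged control mean, largest relative difference 1.55e-15) and the authors' p-value, which equals limma over all probe sets.

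Of 28361 probe sets, 25465 had 1 symbol, and symbols were updated through RefSeq (GRCm38.p6, names only): 22115 by accession, 1815 by symbol, 625 by synonym, with 910 kept. Limma 3.58.1 in R 4.3.3 (lmFit, eBayes, no block) was fitted on 22061 genes. SE is moderated. Code was tested on simulated data. Python 3.11.15, pandas 2.3.3 and matplotlib 3.10.9 made tables and figures.

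The members and lists were chosen with earlier results of these data known. Values on every array are given for members past the threshold, for the 12 smallest p and for those with several probe sets, and from each further list for up to 4 called genes or else differences of the 2 with the smallest p. The arrays of Rock1, Itga3, Itgb5, Itgb8, Vcl and Ilk were added after their values were seen. The number of arrays limits the precision. Alternatives are given in the closing section. One marker gene is not reported here.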

Additional observations from a re-analysis of the deposited data

How the results depend on the processing

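The replicate numbers are shared by both groups but were not taken as pairs. Deviations from the group means correlated at 0.20, 0.36 and -0.07 across genes for numbers 1, 2 and 3. TWEAK 1 and TWEAK 2 each correlated best with the control of their own number, and TWEAK 3 correlated best with control 1 (0.29). These values do not settle whether the arrays were paired. With the replicate block 207 genes, 0 members and 2 genes of the further lists were called, against 661, 3 and 4 without it. All genes called numbered 1020 among genes brighter than the median gene, 107 with probe sets tested one by one, 267 after cyclic loess, 3223 with array weights (control 2 weighted at 5.60) and 1 to 1876 with an array left out. Higher calls were 42.8% of all calls as reported, against 59.1% with arrays centred on their medians and 68.5% after cyclic loess; the median of all genes moved by under 0.1. Members called were 6 of 35 with trend and robust settings, against 881 of 22061 genes. Among brighter genes they were 6 of 30, with Rock2 among them, against 1020 of 11030. They were 0 probe set by probe set, 0 after cyclic loess, 12 with array weights and 0 to 7 with an array left out. At an unadjusted p under 0.05 limma then had 18 members with the block, 19 probe set by probe set and 20 after cyclic loess. By that rule there were 4819 of 22061 genes with the block, 5569 of 28361 probe sets and 4626 genes after cyclic loess. Further-list calls were 1 probe set by probe set, 2 after cyclic loess, 19 with array weights and 0 to 7 with an array left out. The median member difference was 0.0633 with array weights. The causes were not tested. Some alternatives leave each member's difference as reported, so its sign could not change there. These are the block, the trend and robust settings, the brighter genes and testing probe set by probe set. The other Itgb1 probe set, which read the opposite way, was not an alternative by itself. Of 485 member values under 14 alternatives, 474 kept their sign, and 30 of 35 members kept it throughout. The exceptions were Tns1 (0.0189 with centred arrays, 0.0633 with weights, -0.1006 to 0.1132 with an array left out), Itgb6 (0.0149 with centred arrays, 0.0146 with weights, -0.0856 to 0.0177 with an array left out) and, with an array left out, Itga1 (-0.0228 to 0.3779), Pdlim7 (-0.0293 to 0.183) and Parva (-0.0015 to 0.0857).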
